A study of Mus musculus with 36 samples.

Results

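The guanylate-binding proteins described here are the products of 8 mouse genes, Gbp2, Gbp3, Gbp4, Gbp5, Gbp6, Gbp7, Gbp8 and Gbp9, chosen by name as a family and found by their Ensembl identifiers among the 52636 genes listed for each library. Their transcripts were measured by RNA sequencing in 36 libraries, 3 for each of 12 groups. Whole intestines came from E18.5 embryos, late in mouse gestation, and mouse embryonic fibroblasts (MEFs) from culture, and no library was treated. In the first set of intestines, Mlkl-/- controls were compared with Casp8 D387A, Casp8 D387A Cflar-/- Mlkl-/-, Casp8 D387A Cflar-/- Mlkl-/- Casp1-/-, Casp8 D387A Cflar-/- Mlkl-/- Casp1-/- Ifnar1-/- and Casp8 D387A Cflar-/- Mlkl-/- Casp1-/- Fadd-/- embryos. In the second set, Mlkl-/- controls were compared with Casp8 C362A Mlkl-/-, Casp8 C362A Mlkl-/- Casp1-/- and Casp8 C362A Cflar-/- Mlkl-/- embryos. Of the cultured MEFs, 3 libraries were Mlkl-/- and 3 were Casp8 D387A Cflar-/- Mlkl-/-. Both Casp8 alleles are knock-ins, carried in every cell on a C57BL/6N background. D387A stops caspase-8 from being cut between its catalytic subunits, and C362A inactivates its catalytic site.

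Mlkl, the executioner of necroptosis, was deleted in every group except Casp8 D387A, so that group differed from its controls at 2 genes. No Mlkl-/- Casp1-/- group was analysed here, so each Casp1-deficient group also differed from the Mlkl-/- controls at Casp1. Cflar encodes cFLIP, a partner and inhibitor of caspase-8, and was deleted with a different allele in each set of intestines. Fadd encodes the adaptor that brings caspase-8 to death receptors, Ifnar1 a chain of the type I interferon receptor, and Casp1 the protease activated by inflammasomes. Between 17943524 and 31052238 reads per intestine and between 20927014 and 32307629 reads per MEF library fell on genes. Casp1 had at most 5 reads in each of the 12 Casp1-/- libraries and at least 952 in each other intestine, Fadd had 15 to 23 reads in the Fadd-/- libraries and at least 689 in the other intestines, and Ifnar1 lay between 8.50 and 9.696 RPKM in the Ifnar1-/- libraries and at or above 19.5 RPKM in the other intestines. Reads remained on Mlkl and Cflar in the deleted groups, so neither gene checked the labels. Sample titles carried number prefixes that differed between most groups of the first set, and what they mark is not given in the sources used here, so it cannot be told apart from genotype.

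Guanylate-binding proteins are large GTPases of the dynamin superfamily. Interferon gamma induces them strongly and type I interferons do so as well. They assemble on membranes of vacuoles that hold pathogens and on bacteria in the cytosol, and they help caspase-11 and the AIM2 and NLRP3 inflammasomes to respond. In the intestine they are known as interferon-induced genes of the epithelium and of immune cells.

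The mouse genes lie in 2 clusters (GRCm38, GENCODE M21). Gbp5 (chr3:142493978-142522344), Gbp7 (chr3:142530342-142550149), Gbp3 (chr3:142560026-142573209) and Gbp2 (chr3:142620602-142638008) lie on the plus strand of chromosome 3. Gbp8 (chr5:105014150-105139540), Gbp9 (chr5:105077630-105139539), Gbp4 (chr5:105115767-105139586) and Gbp6 (chr5:105270702-105293698) lie on the minus strand of chromosome 5. Each is annotated as protein coding, and the reads counted were those on their exons. Gbp4, Gbp8 and Gbp9 overlap at their 5′ ends, where each shares 60 or 61 exonic bases with another of them. Close copies could also share reads. For Gbp6, 70.7% of the 50-base stretches of its transcripts also occur in another gene, most of them in the predicted gene Gm43302. The share was 18.1% for Gbp8 and 12.7% for Gbp7, and it lay between 1.44% (Gbp5) and 8.05% (Gbp9) for the other 5. Reads that aligned to more than 1 place were discarded by the authors, so the levels of Gbp6 and Gbp8 are the most uncertain of the 8.

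The bases just upstream of the start sites are printed here because the members on chromosome 3 rose together in the mutant intestines. They differed from each other, however, when Casp1 was deleted. Sequences were available for 4 of the 8 genes and were taken from RefSeq on GRCm38.p6, 250 bases upstream of the transcription start, plus strand, 5′ to 3′. Capitals mark matches on either strand to the core of an interferon-stimulated response element (GAAANNGAAA), the core of a gamma-activated site (TTCNNNGAA) or the NF-kB consensus.
Gbp2, chr3:142620413-142620662: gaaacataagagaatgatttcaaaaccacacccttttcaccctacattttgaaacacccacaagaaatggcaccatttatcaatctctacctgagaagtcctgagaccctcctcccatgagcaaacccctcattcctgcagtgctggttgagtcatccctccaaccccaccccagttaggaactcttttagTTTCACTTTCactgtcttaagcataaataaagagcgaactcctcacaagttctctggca
Gbp3, chr3:142559794-142560043: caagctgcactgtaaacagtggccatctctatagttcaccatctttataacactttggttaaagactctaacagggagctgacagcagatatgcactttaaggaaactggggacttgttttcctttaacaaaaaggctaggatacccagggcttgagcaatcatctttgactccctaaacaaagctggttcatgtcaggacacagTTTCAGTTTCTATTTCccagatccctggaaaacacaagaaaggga
Gbp5, chr3:142496684-142496933: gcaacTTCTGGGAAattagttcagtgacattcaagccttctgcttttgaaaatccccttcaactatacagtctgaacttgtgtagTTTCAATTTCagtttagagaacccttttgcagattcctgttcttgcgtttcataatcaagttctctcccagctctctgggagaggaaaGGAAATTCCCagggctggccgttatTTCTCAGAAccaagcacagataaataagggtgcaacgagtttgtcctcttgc
Gbp7, chr3:142530086-142530335: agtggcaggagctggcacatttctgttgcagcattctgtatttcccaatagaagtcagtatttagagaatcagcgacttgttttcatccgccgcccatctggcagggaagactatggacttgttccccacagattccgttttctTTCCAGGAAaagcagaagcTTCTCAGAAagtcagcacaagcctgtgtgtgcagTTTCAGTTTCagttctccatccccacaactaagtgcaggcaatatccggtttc

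Each of the 4 stretches held a match to the interferon-stimulated response element core, on the strand opposite to the gene. Its first base lay 59 bases upstream of the start in Gbp2, 53 in Gbp7 and 165 in Gbp5. In Gbp3 a pair of overlapping matches began 45 and 39 bases upstream. Among 32851 upstream stretches of this length in the same collection, 978 (2.98%) held this core. Gamma-activated site cores were found in Gbp5, beginning 245 and 52 bases upstream, and in Gbp7, beginning 106 and 87 bases upstream, whereas 7.02% of all stretches held one. Gbp5 also held the NF-kB consensus, 77 bases upstream, as did 3.90% of all stretches. Gbp3 has another annotated start, and the 250 bases before that start (chr3:142560106-142560355) held no match to these letters. For Gbp5 the RefSeq start lies downstream of the GENCODE start, so its stretch falls within the span of the gene given above. A match describes the letters and does not show that a factor bound there.

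**Figure D1:**
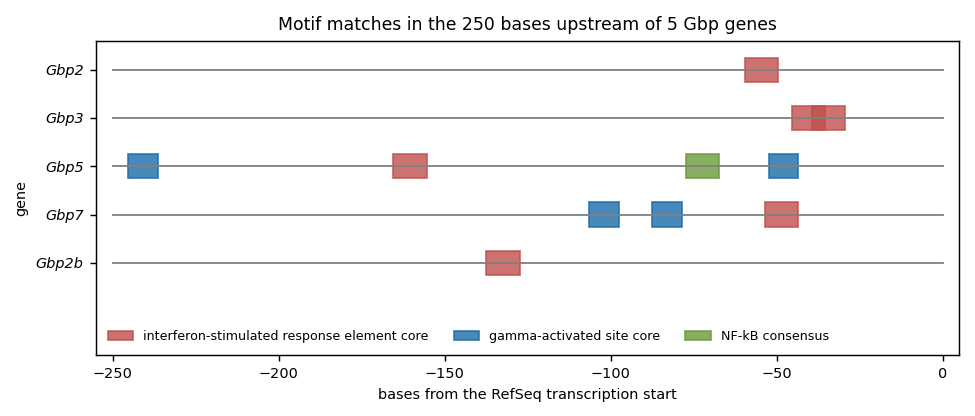
Positions of the motif matches in the 250 bases upstream of the RefSeq start of Gbp2, Gbp3, Gbp5, Gbp7 and the neighbouring gene Gbp2b. The x axis is the distance from the start in bases, each box is 1 match, and each of the 5 genes has a red box for the interferon-stimulated response element core.

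Transcripts of the 8 genes were scarce but present in control intestines. Levels are given as RPKM, reads divided by the width of the gene and by the size of the library, computed here from the deposited counts on scaled library sizes. Summed over the 8 genes, they reached 16.9 ± 0.962 RPKM (SD, n = 3) in the Mlkl-/- controls of the first set and 14.4 ± 2.03 in those of the second. Gbp7, Gbp2 and Gbp3 made up 27.2%, 24.7% and 21.2% of that sum in the first set. Gbp6 contributed the least there, at 2.08%. All 8 genes passed the filter on low counts in both sets of intestines. A gene was called higher or lower when the quasi-likelihood test of edgeR gave an adjusted p under 0.05 (Benjamini-Hochberg, over all genes tested) and the log2 fold change passed 1 or -1. Whole intestines were sequenced, so more cells of a type and more RNA per cell cannot be told apart.

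**Figure D2:**
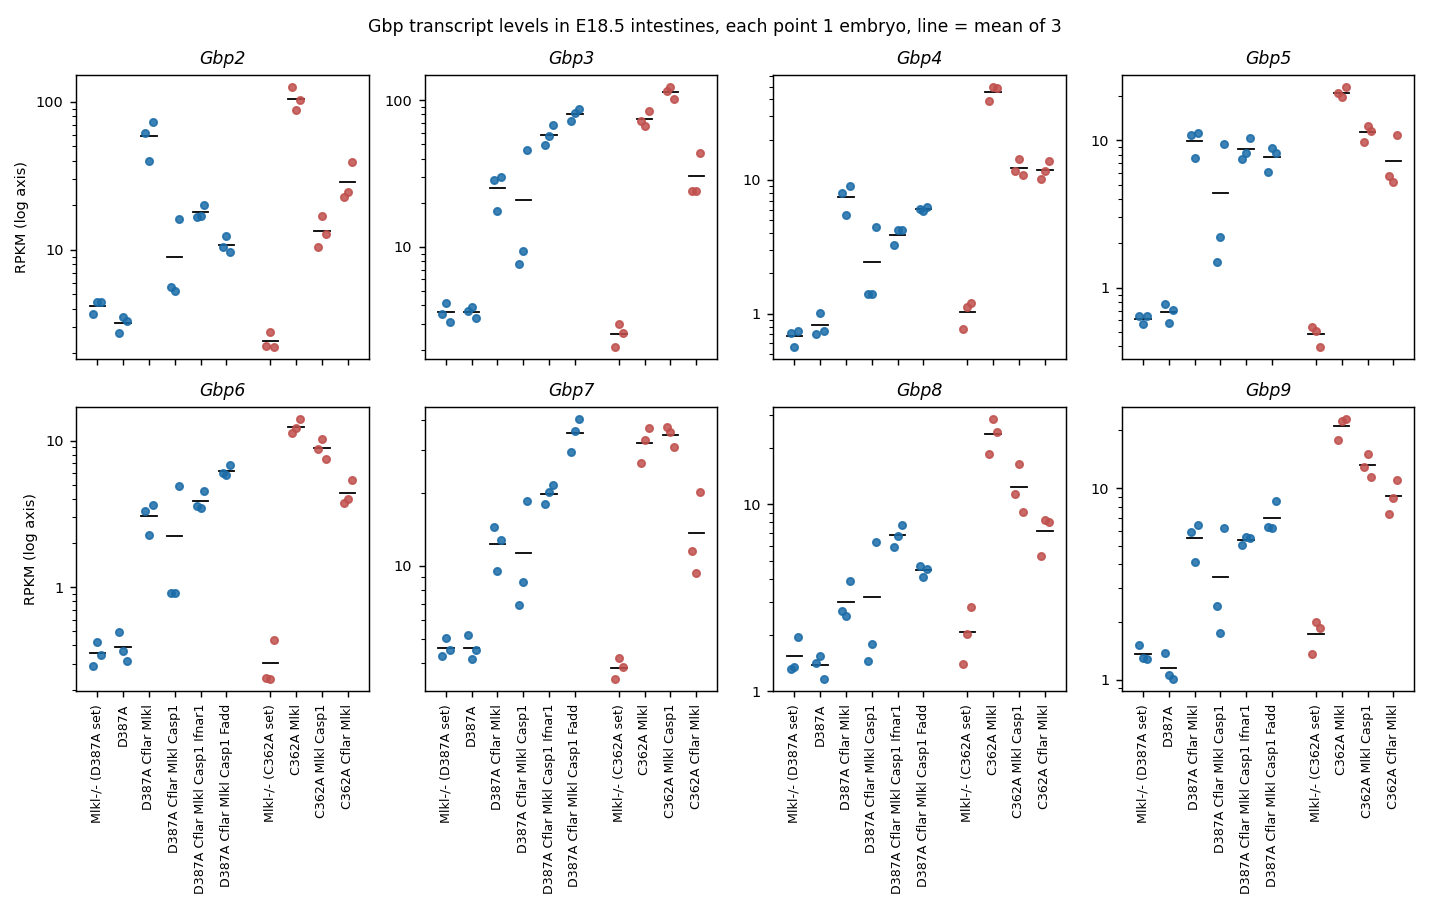
Level of each of the 8 genes in each E18.5 intestine, in RPKM on a log axis that differs between panels, with the D387A set in blue and the C362A set in red. Each point is 1 embryo and each line the mean of 3. The controls and Casp8 D387A embryos have the lowest means in every panel, and for Gbp2 the Casp1-/- groups lie far below the matching groups with intact Casp1.

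In Casp8 D387A intestines none of the 8 genes was called by edgeR against Mlkl-/- controls, where 0.00545% of the genes tested were called. No member had an unadjusted p under 0.05, and none was called by limma-voom, by DESeq2 or under the other settings tried. Gbp2 stood at 2.73, 3.54 and 3.30 RPKM in Casp8 D387A embryos and at 3.69, 4.43 and 4.45 in controls, with a log2 fold change of -0.38 ± 0.35 (SE). The other 7 genes had log2 fold changes from -0.26 to 0.28. The 95% interval of the difference ran from -1.07 to 0.30 for Gbp2, from -0.97 to 0.99 for Gbp3 and from -0.52 to 0.52 for Gbp7, and the intervals of Gbp2, Gbp4, Gbp5 and Gbp6 reached past -1 or 1.

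With Cflar deleted as well, in Casp8 D387A Cflar-/- Mlkl-/- intestines, 7 of the 8 genes rose, whereas 9.4% of the genes tested were called higher. The median log2 fold change over the 8 was 2.97, beside -0.01 over all genes tested. Gbp2, which coats the vacuoles of Toxoplasma and serves AIM2 inflammasome activation, stood at 62.1, 40.05 and 73.1 RPKM and rose 13.9-fold (log2 3.80 ± 0.34, adjusted p = 4.50e-08). Gbp5, a promoter of NLRP3 inflammasome assembly, rose from 0.644, 0.567 and 0.638 RPKM to 10.9, 7.52 and 11.3 RPKM (16-fold, adjusted p = 3.63e-06). For all 8 genes every mutant embryo lay above every control, as held for 34.3% of the genes tested.

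Gbp4 rose 11.1-fold, from a mean of 0.676 ± 0.0945 to 7.49 ± 1.85 RPKM (SD, n = 3). Gbp6 rose 8.67-fold, Gbp3 7.04-fold and Gbp9 4.01-fold. Gbp7, which aids assembly of the NADPH oxidase, had the highest control level and the smallest called rise, 2.67-fold, from 4.26, 5.05 and 4.51 to 14.5, 9.56 and 12.8 RPKM. Gbp8 was the member not called, at 1.31, 1.35 and 1.95 RPKM in controls and 2.67, 2.51 and 3.87 in mutants (log2 0.97 ± 0.39, adjusted p = 0.0424), with a fold change just short of the threshold. It was called without the third control (log2 1.18) or without the second mutant embryo (1.09).

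The second of the 3 Casp8 D387A Cflar-/- Mlkl-/- embryos had the lowest level of each of the 8 genes in its group, with a sum of 88.9 RPKM beside 136 and 150.03. Gbp2 took 46.5% of the summed level in this group, more than in any other group of intestines.

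Deletion of Casp1 in these embryos lowered some members, while others were not called. In Casp8 D387A Cflar-/- Mlkl-/- Casp1-/- intestines, 3 of the 8 genes were called lower than in Casp8 D387A Cflar-/- Mlkl-/- intestines, where 4.51% of the genes tested were called lower. The median log2 fold change was -0.57. Gbp2 stood at 5.62, 5.23 and 16.1 RPKM and fell by 2.70 on the log2 scale (SE 0.32, adjusted p = 2.78e-06). Gbp4 stood at 1.39, 1.41 and 4.48 RPKM and fell by 1.63 (SE 0.32, adjusted p = 0.00052). For both genes each Casp1-/- embryo lay below each embryo with intact Casp1. Gbp5 stood at 1.49, 2.19 and 9.39 RPKM and fell by 1.19 (SE 0.43, adjusted p = 0.0298), with overlapping groups. Gbp3 stood at 7.67, 9.33 and 46.1 RPKM (log2 -0.27 ± 0.44, adjusted p = 0.648) and Gbp7 at 6.89, 8.55 and 18.51 RPKM (log2 -0.12 ± 0.25, adjusted p = 0.717).

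The third Casp1-/- embryo stood apart from its group for every member. Its level was 5.42 times the mean of the other two embryos for Gbp3, 5.34 times for Gbp6, 5.11 times for Gbp5 and 2.40 times, the lowest ratio among the 8, for Gbp7. Its library was not deeper, with 20568030 reads on genes beside 19871593 and 21057272, and its Casp1 reads numbered 4. Its alleles at Casp8, Cflar and Mlkl were not checked by these data. Irf1, a transcription factor induced by interferon gamma, stood at 72.3 RPKM in it beside 35.6 and 45.7. The summed level of 9 macrophage markers was 726 CPM (reads relative to the size of the library) beside 438 and 425, and that of 8 T and NK cell markers was 5.96 beside 4.05 and 5.39. That of 6 epithelial markers, without Fabp1 and Fabp2, was 6405 CPM beside 4779 and 5426. The part of these differences in the Gbp levels was not tested.

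Results on this genotype therefore changed with that embryo. Without it, 6 of the 8 genes were lower on Casp1 loss (Gbp2, Gbp3, Gbp4, Gbp5, Gbp6 and Gbp9), where 6.36% of the genes tested were called lower, with log2 fold changes from -1.38 for Gbp9 to -3.43 for Gbp2. Gbp3 then fell by 1.57, and Gbp7 and Gbp8 were at -0.67 and -0.90. Without the first or without the second Casp1-/- embryo, 2 of the 8 were lower, Gbp2 and Gbp4 both times (4.28% and 3.68% of the genes). The calls for Gbp2 and Gbp4 held without any one of the 6 libraries, while that for Gbp5 was lost without the first or the third embryo of Casp8 D387A Cflar-/- Mlkl-/- or the first or the second Casp1-/- embryo (log2 -1.11, -1.08, -0.77 and -0.87). It was also lost when these 2 groups were fitted alone (log2 -1.19, edgeR's adjusted p = 0.162).

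Against Mlkl-/- controls, 7 of the 8 genes were still higher in Casp8 D387A Cflar-/- Mlkl-/- Casp1-/- intestines, where 2.16% of the genes tested were called higher. The log2 fold changes ran from 1.04 for Gbp8, not called (adjusted p = 0.0703), to 2.81 for Gbp5. Without the third Casp1-/- embryo, 4 remained called (Gbp3, Gbp4, Gbp5 and Gbp6), at log2 1.25, 1.05, 1.57 and 1.36, where 1.32% of the genes were called higher. Gbp2 was then at 0.37. Without the first or the second Casp1-/- embryo all 8 were called (2.51% and 2.73% of the genes). The call for Gbp2 was also lost without any 1 of the 3 controls (log2 1.01 to 1.15) and in limma-voom (0.89, adjusted p = 0.0892). Fitted with these 2 groups alone, Gbp4 and Gbp5 were called (1.08% of the genes called higher), while no log2 fold change moved by more than 0.0019 and 7 had an unadjusted p under 0.05.

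**Figure D3:**
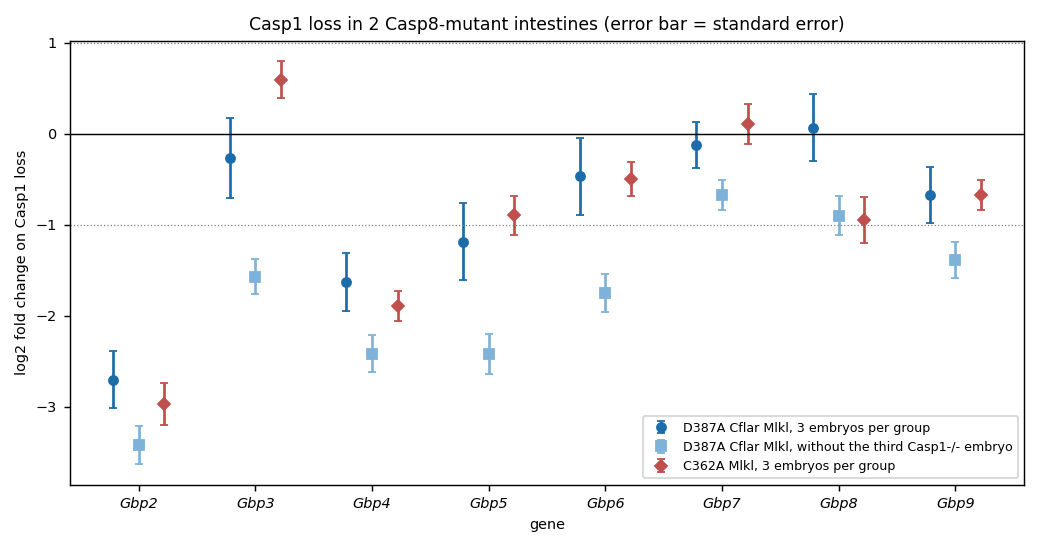
Log2 fold change on Casp1 loss for each of the 8 genes, in Casp8 D387A Cflar-/- Mlkl-/- intestines (circles), in the same comparison without the third Casp1-/- embryo (squares) and in Casp8 C362A Mlkl-/- intestines (diamonds). Bars are standard errors and dotted lines mark the fold threshold of 1 and -1. Gbp2 and Gbp4 lie below -1 in all of the series shown.

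No member was called lower when Ifnar1 was deleted on the Casp1-/- background. In Casp8 D387A Cflar-/- Mlkl-/- Casp1-/- Ifnar1-/- intestines all 8 genes were higher than in Mlkl-/- controls, where 6.76% of the genes tested were called higher. Their log2 fold changes ran from 1.97 for Gbp9 to 4.02 for Gbp3, and no call was lost without any one of the libraries compared. Gbp2 stood at 16.6, 17.03 and 20.2 RPKM, Gbp3 at 49.6, 56.8 and 67.5, and Gbp8 at 5.94, 6.77 and 7.77, the highest mean of Gbp8 in the first set. For all 8, every one of these embryos lay above every control, as did 28.4% of the genes tested.

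Compared with Casp8 D387A Cflar-/- Mlkl-/- Casp1-/- intestines, Ifnar1 loss went with higher Gbp2 (log2 1.00 ± 0.31, adjusted p = 0.0215), Gbp3 (1.47 ± 0.44, adjusted p = 0.0198) and Gbp8 (1.11 ± 0.37, adjusted p = 0.0299), or 3 of the 8, where 3.28% of the genes tested were called higher. The log2 fold changes of the other 5 ran from 0.64 to 1.00. The fold of Gbp2 lay at the threshold, and its call was lost with a prior count of 2 and on genes averaging 50 reads or more (log2 0.997 and 0.998). The count of 3 rested on single libraries. It was 8 without the third Casp1-/- embryo (6.06% of the genes called higher), 0 without the first, 0 without the second (1.94% and 1.78%), 0 without the third Ifnar1-/- embryo and 2 without the second. The shares over all genes are not given for the fits that left out an Ifnar1-/- embryo. Fitted with these 2 groups alone the count of members was 0 by edgeR (1.2% of the genes called higher), with 3 at an unadjusted p under 0.05. The log2 fold changes moved by at most 0.0023 in that fit, and the adjusted p lay between 0.126 and 0.371.

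Fadd deletion on the same background gave the highest Gbp3 and Gbp7 of the first set. In Casp8 D387A Cflar-/- Mlkl-/- Casp1-/- Fadd-/- intestines all 8 genes were higher than in Mlkl-/- controls, where 2.81% of the genes tested were called higher. Gbp3 stood at 72.5, 82.2 and 86.8 RPKM (log2 4.49 ± 0.51, adjusted p = 1.65e-05) and Gbp7 at 29.5, 36.1 and 40.1 RPKM (log2 2.94 ± 0.27, adjusted p = 2.94e-06). Gbp2 stood at 10.52, 12.4 and 9.67 RPKM, the smallest of the 8 rises (log2 1.37 ± 0.33, adjusted p = 0.0074). Gbp8 lost its call without the first control (log2 1.42).

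Against Casp8 D387A Cflar-/- Mlkl-/- Casp1-/- intestines, 5 of the 8 genes were higher on Fadd loss (Gbp3, Gbp4, Gbp6, Gbp7 and Gbp9), where 2.56% of the genes tested were called higher. Their log2 fold changes ran from 1.02 for Gbp9 to 1.94 for Gbp3. Gbp2 was at 0.27 ± 0.31 (adjusted p = 0.591). Without the third Casp1-/- embryo, 7 were higher, all but Gbp2, which was at 1.00 and just under the threshold, and 3.96% of the genes were called higher. Without the first or the second, 3 were higher (Gbp3, Gbp4 and Gbp7; 1.7% and 2.07% of the genes), and Gbp6 and Gbp9 were not called without the third Fadd-/- embryo either (log2 1.42 and 0.85). The fit of these 2 groups alone called 1, Gbp7 (1.45% of the genes called higher), with 5 at an unadjusted p under 0.05 and log2 fold changes within 0.0042 of those above.

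The second set asked what catalytically inactive caspase-8 did. In Casp8 C362A Mlkl-/- intestines, with Cflar intact, all 8 genes rose against Mlkl-/- controls, where 10.4% of the genes tested were called higher. The median log2 fold change was 5.12, beside 0.02 over all genes tested, and each call held without any one of the 6 libraries. Gbp2 rose from 2.25, 2.79 and 2.22 RPKM to 125, 88.1 and 103 RPKM (43.4-fold, adjusted p = 1.66e-09). Gbp4 rose from 0.770, 1.13 and 1.19 RPKM to 38.7, 49.2 and 48.6 RPKM (44.2-fold, adjusted p = 1.90e-10). Gbp5 and Gbp6 rose 43.2-fold and 41.5-fold. Gbp3 rose 29.2-fold, from 2.10, 2.99 and 2.58 RPKM to 72.4, 67.1 and 84.7. Gbp9, Gbp8 and Gbp7 rose the least, 12.1-fold, 11.5-fold and 8.43-fold. The summed level reached 336 ± 19.0 RPKM (SD, n = 3), the highest of the 12 groups.

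Casp1 loss in Casp8 C362A Mlkl-/- intestines separated the members most clearly. It lowered 2 of the 8 genes by the call, where 5.72% of the genes tested were called lower, and the median log2 fold change was -0.78. Gbp2 fell to 10.4, 17.03 and 12.8 RPKM (log2 -2.97 ± 0.23, adjusted p = 5.30e-07) and Gbp4 to 11.6, 14.2 and 10.9 RPKM (log2 -1.89 ± 0.16, adjusted p = 1.46e-06). Gbp3 stood higher, at 115, 122 and 102 RPKM against 72.4, 67.1 and 84.7, without overlap between the groups (log2 0.59 ± 0.21, adjusted p = 0.0388), a difference below the fold threshold. Gbp7 stood at 37.4, 35.7 and 31.0 RPKM against 26.5, 32.9 and 37.1, with a log2 fold change of 0.11 and a 95% interval from -0.32 to 0.54.

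The other 4 members lay between these pairs. Gbp8 (log2 -0.95 ± 0.25, adjusted p = 0.0105), Gbp5 (-0.90 ± 0.21, adjusted p = 0.0055) and Gbp9 (-0.67 ± 0.17, adjusted p = 0.00701) stayed short of the fold threshold, and Gbp6 missed the adjusted p as well (-0.50 ± 0.18, adjusted p = 0.0505). Gbp8 was called lower without the first Casp8 C362A Mlkl-/- embryo (log2 -1.10) or the second Casp1-/- embryo (-1.23). In 6 of the 8 genes every Casp1-/- embryo lay below every embryo with intact Casp1, as in 25.7% of the genes tested. Against Mlkl-/- controls all 8 were still higher in the Casp1-/- embryos, where 6.79% of the genes tested were called higher, from log2 2.47 for Gbp2 to 5.46 for Gbp3.

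Cflar loss in Casp8 C362A Mlkl-/- intestines lowered all 8 genes, where 4.62% of the genes tested were called lower. The log2 fold changes were even, from -1.21 for Gbp9 and -1.23 for Gbp7 to -1.87 for Gbp2 and -1.93 for Gbp4, and each call held without any one of the 6 libraries. Gbp2 stood at 22.6, 24.6 and 39.0 RPKM, Gbp3 at 23.9, 23.9 and 43.9 and Gbp7 at 11.6, 9.33 and 20.1. The third of these embryos had the highest level of 7 of the 8 genes, with a sum of 152 RPKM beside 90.4 and 95.8. Against Mlkl-/- controls all 8 remained higher in Casp8 C362A Cflar-/- Mlkl-/- intestines, where 13.4% of the genes tested were called higher, from log2 1.80 for Gbp8 to 3.90 for Gbp5.

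**Figure D4:**
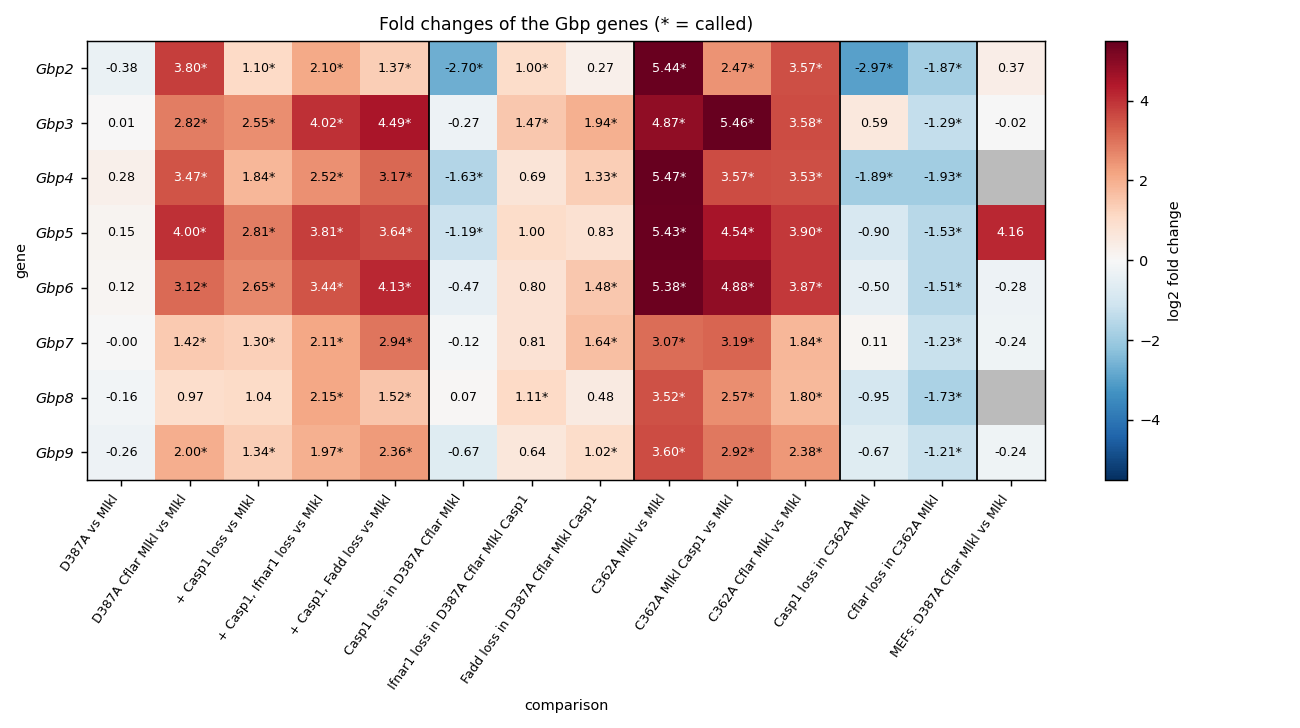
Log2 fold change of each of the 8 genes (rows) in each comparison (columns), in edgeR's fit of the set, with red for higher, blue for lower, a star for a called gene and grey for a gene not tested. All of the comparisons of C362A intestines with controls are starred for every member, and in the columns of Casp1 loss Gbp2 and Gbp4 are blue.

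Effects in the mutant genotypes of the 2 sets were compared in a fit of all 30 intestines. The rise in Casp8 D387A Cflar-/- Mlkl-/- intestines differed from that in Casp8 C362A Cflar-/- Mlkl-/- intestines for none of the 8 genes in edgeR's test, where 0.0764% of the genes tested were called, and none had an unadjusted p under 0.05 or was called by limma-voom or DESeq2. The differences ran from -0.82 for Gbp8 to 0.23 for Gbp2 on the log2 scale, with 95% intervals of -1.85 to 0.20 and -0.61 to 1.07, so differences of 2-fold were not excluded. The effect of Casp1 loss also differed between Casp8 D387A Cflar-/- Mlkl-/- and Casp8 C362A Mlkl-/- intestines for none of the 8 (5.73% of the genes called), with 1 gene, Gbp8, at an unadjusted p under 0.05 and none called by limma-voom or DESeq2. Without the third Casp8 D387A Cflar-/- Mlkl-/- Casp1-/- embryo, the log2 fold change on Casp1 loss was lower in the D387A background for 3 of the 8, where 2.23% of the genes were called lower. The differences were -2.14 for Gbp3, -1.50 for Gbp5 and -1.22 for Gbp6. Gbp3 did not fall on Casp1 loss in the C362A background, where it stood higher. Without the first embryo of that D387A group, Gbp8 was called the other way (1.39), where 3.94% of the genes were called higher. The groups of these tests differed in set as well as in genotype. In the test of Casp1 loss the 2 backgrounds also differed at Cflar, deleted in the D387A groups and intact in the C362A groups.

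The make-up of the family also differed between groups. Gbp2 and Gbp3 lie in the same cluster of chromosome 3, and the ratio of their RPKM was examined after the values were seen, so it is given as a description. In Mlkl-/- controls of the first set the ratio of Gbp2 to Gbp3 was 1.05, 1.06 and 1.45, and in those of the second it was 1.07, 0.934 and 0.858. In Casp8 D387A Cflar-/- Mlkl-/- embryos it was 2.18, 2.30 and 2.45. With Casp1 deleted it was 0.733, 0.561 and 0.350, and the embryo with the highest Gbp levels had the lowest ratio. With Ifnar1 deleted as well it was 0.335, 0.2997 and 0.299, and with Fadd deleted as well 0.145, 0.151 and 0.111.

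In Casp8 C362A Mlkl-/- embryos the ratio was 1.73, 1.31 and 1.21, and with Casp1 deleted it was 0.0909, 0.140 and 0.126. The 12 intestines that lacked Casp1 thus lay between 0.0909 and 0.733, and the 18 others between 0.747 and 2.45. The highest value without Casp1 and the lowest with it, in a Casp8 D387A embryo, were close. In Casp8 C362A Cflar-/- Mlkl-/- embryos, with Casp1 intact, the ratio was 0.948, 1.03 and 0.890. As shares of the summed level, Gbp3 took 51.6% in Casp8 C362A Mlkl-/- Casp1-/- and 51.0% in Casp8 D387A Cflar-/- Mlkl-/- Casp1-/- Fadd-/- intestines, and Gbp2 took 6.11% and 6.92%.

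**Figure D5:**
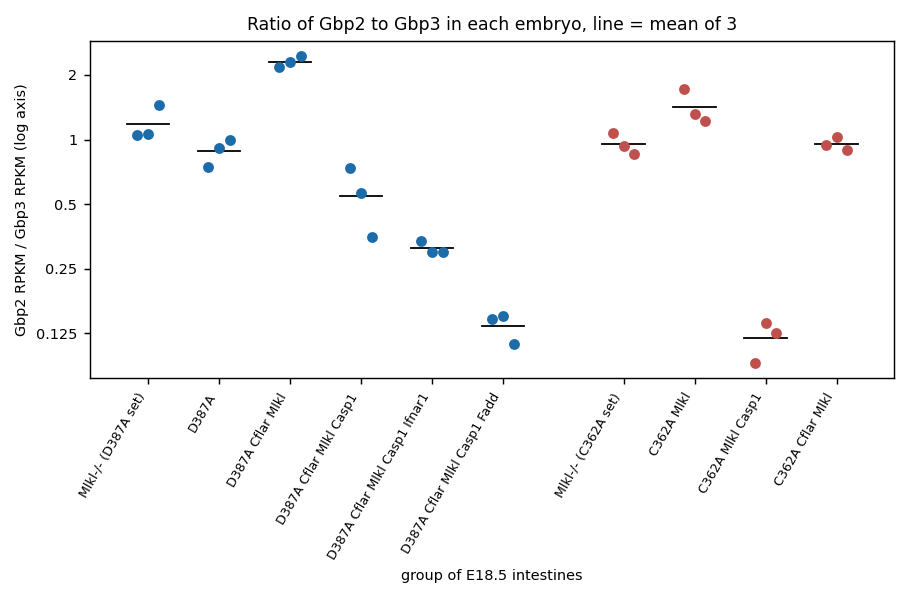
Ratio of Gbp2 to Gbp3 RPKM in each E18.5 intestine, on a log axis, with the D387A set in blue, the C362A set in red and lines at the mean of 3 embryos. The 4 groups without Casp1 have mean ratios of 0.548, 0.311, 0.136 and 0.119, and the lowest mean among the others is 0.887.

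Across the 30 intestines, each member was correlated with the others on the log2 scale, as a description over libraries that share groups. Gbp3 and Gbp7, neighbours on chromosome 3, had the highest r of any pair of members (0.983). Gbp4 was most like Gbp9 (r = 0.976), Gbp6 most like Gbp3 (0.9748), Gbp5 most like Gbp6 (0.971) and Gbp8 most like Gbp9 (0.943). Gbp2 was most like Gbp4 (0.895) and least like Gbp7 (0.688). Over 19632 genes ranked by r to the mean of the 8, those nearest outside the family were Ifi205 (0.982), Nlrc5 (0.981), Ifi211 (0.981), Iigp1 (0.981) and Tgtp1 (0.980), all of them known as interferon-induced genes.

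In MEFs Gbp4, Gbp5, Gbp6 and Gbp8 had at most 14 reads in any library, whereas Gbp2, Gbp3, Gbp7 and Gbp9 had at least 19 in each of the 6. The summed level was 6.01 ± 1.77 RPKM (SD, n = 3) in Mlkl-/- and 6.90 ± 2.04 in Casp8 D387A Cflar-/- Mlkl-/- MEFs, and Gbp2 made up 55.2% and 62.7% of it. Gbp4 had 2 reads over the 3 control libraries and 5 over the 3 mutant libraries, and Gbp8 had 1 and 2, so neither passed the filter. None of the 6 genes tested was called by edgeR, where 0.0711% of the genes tested were called. DESeq2 and limma-voom called none of them either. Gbp2 stood at 2.34, 3.14 and 4.56 RPKM in controls and 3.30, 5.67 and 3.98 in mutants (log2 0.37, 95% interval -0.16 to 0.91). For Gbp3 the log2 fold change was -0.02 (95% interval -0.54 to 0.51), and for Gbp7 it was -0.24 (-0.79 to 0.31).

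Gbp5 was the 1 member with an unadjusted p under 0.05 in MEFs. It had 10, 14 and 12 reads in the mutant and 0, 2 and 0 in the control libraries, a ratio of 20.9 per read sequenced with a 95% interval from 5.39 to 179 that covers counting error only. Its adjusted p was 0.198, and it was called when no filter was applied. Its mean level in the mutant MEFs was 0.167 RPKM, below the control intestines.

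The rise in Casp8 D387A Cflar-/- Mlkl-/- tissue was larger in intestine than in MEFs for 5 of the 8 genes in a fit of 24 libraries, where 7.3% of the genes tested were called in that direction. The differences in log2 fold change were 3.45 ± 0.48 for Gbp2 (adjusted p = 6.87e-06), 3.42 ± 1.12 for Gbp6, 2.85 ± 0.72 for Gbp3, 2.27 ± 0.53 for Gbp9 and 1.67 ± 0.43 for Gbp7. Gbp6 had 24 and 17 reads over the control and mutant MEFs, and its call was lost in limma-voom (adjusted p = 0.0927) and without the second or the third Mlkl-/- MEF library (edgeR, adjusted p = 0.134 and 0.064). Gbp5 differed by -0.11 (95% interval -1.42 to 1.20). Gbp4 had 2 and 5 reads and Gbp8 had 1 and 2 over the control and mutant MEFs. Both entered this fit through their reads in intestine, so it cannot show whether their rise differed. Tissue and culture differ beside genotype, and MEFs had summed epithelial markers of 4.42 to 18.2 CPM with Fabp1 and Fabp2 at 0 reads, against 4843 CPM or more in every intestine.

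The 3 further genes of the family, Gbp2b, Gbp10 and Gbp11, did not all follow the 8. Gbp2b, the gene between Gbp3 and Gbp2 on chromosome 3, moved the other way. It stood at 1.36, 1.36 and 1.59 RPKM in controls and at 0.398, 0.380 and 0.736 in Casp8 D387A Cflar-/- Mlkl-/- intestines (log2 -1.50 ± 0.42, adjusted p = 0.00538). It was lower than in controls in each Casp1-/- group too (log2 -2.57, -3.002, -1.996 and -1.57), and in Casp8 C362A Cflar-/- Mlkl-/- intestines (-1.36).

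In Casp8 C362A Mlkl-/- intestines Gbp2b was higher than in controls, at 4.92, 3.86 and 3.53 against 1.36, 1.83 and 1.99 RPKM (log2 1.25 ± 0.24, adjusted p = 0.000798). It fell on Casp1 loss (log2 -2.82) and on Cflar loss (-2.62) from there. Its upstream stretch (chr3:142594597-142594846) holds an interferon-stimulated response element core beginning 137 bases before the start. The correlation of Gbp2b with the mean of the 8 genes over the 30 intestines was -0.14.
Gbp2b, chr3:142594597-142594846: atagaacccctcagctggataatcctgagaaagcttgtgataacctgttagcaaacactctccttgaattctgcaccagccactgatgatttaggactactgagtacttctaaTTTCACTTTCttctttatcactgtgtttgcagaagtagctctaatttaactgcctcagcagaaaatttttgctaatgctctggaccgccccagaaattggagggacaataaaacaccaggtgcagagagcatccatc

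Gbp10 and Gbp11, of the cluster on chromosome 5, rose with the 8. Gbp10 had 0 reads in the 6 control and Casp8 D387A libraries of the first set and 43, 11 and 28 in Casp8 D387A Cflar-/- Mlkl-/- intestines, at least 22.8-fold higher when 3 reads over the control group are taken as the floor. Of its 50-base stretches, 84.1% also occur in another gene, mostly Gbp6, so its reads are uncertain. Gbp11, annotated as a polymorphic pseudogene, had a log2 fold change of 4.43 ± 0.53 in the same comparison and of 5.63 ± 0.46 in Casp8 C362A Mlkl-/- intestines. Both fell on Casp1 loss in each mutant, by 2.30 and 2.14 in D387A and by 1.09 and 2.81 in C362A embryos for Gbp10 and Gbp11.

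Interferons and their signalling genes were read beside the family. Ifng, the gene of interferon gamma, had 29, 30 and 35 reads in Casp8 C362A Mlkl-/- intestines and at most 4 reads in each of the other 33 libraries. It was called higher there than in controls, and it was lower on Casp1 loss (1, 1 and 1 reads, log2 -4.63 ± 0.61) and on Cflar loss (0, 1 and 4 reads, log2 -4.06 ± 0.55). In Casp8 D387A Cflar-/- Mlkl-/- intestines it had 3, 2 and 4 reads, or 9 against 1 over the controls, a ratio of 7.51 per read sequenced (95% interval 1.04 to 329, counting error only). With Casp1 deleted 1 read remained, a ratio of 0.12 (0.00274 to 0.867). The other groups in which Gbp genes were high had 2 to 5 Ifng reads over 3 libraries.

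Ifnb1, the gene of interferon beta, went another way. It had 37, 58 and 44 reads in Casp8 C362A Mlkl-/- Casp1-/- intestines against 4, 8 and 5 in Casp8 C362A Mlkl-/- (log2 3.19 ± 0.39, adjusted p = 0.000182). It had 12, 26 and 11 reads in the Fadd-/- group, 4, 2 and 8 in the Ifnar1-/- group and 0 in both groups of control intestines. Thus, in C362A intestines, Casp1 loss went with fewer Ifng reads, more Ifnb1 reads, lower Gbp2 and Gbp4 and a Gbp3 level that was not lower. Whether these are linked was not tested.

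Irf1 was at log2 0.66 in Casp8 D387A Cflar-/- Mlkl-/- intestines and not called, and rose in Casp8 C362A Mlkl-/- intestines (log2 1.68).

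Of 10 genes of interferon gamma signalling, 9 were tested in the first set and 2 rose in Casp8 D387A Cflar-/- Mlkl-/- intestines, among them the feedback inhibitor Socs1 (log2 1.62 ± 0.31), with a median of 0.40 over the 9. In Casp8 C362A Mlkl-/- intestines 6 of 10 rose, and on Casp1 loss there 2 fell, Ifng and the MHC class II regulator Ciita (log2 -2.54 ± 0.34). Of 8 genes of type I interferon signalling, 7 were tested in the first set and 2 rose in Casp8 D387A Cflar-/- Mlkl-/- intestines, Irf7 and Usp18 (log2 1.32 and 2.20), and 5 of 8 rose in Casp8 C362A Mlkl-/- intestines. On Casp1 loss in the C362A set 2 of the 8 rose, Ifnb1 and Usp18 (log2 1.03), and none fell. On Ifnar1 loss 2 of 7 rose, Irf7 and Usp18 (log2 1.62 and 1.51), and Ifnar1 itself fell. Neither Irf7 nor Usp18 was called there without the first or without the second Casp1-/- embryo (log2 1.11 to 1.24), and both were without the third (3.11 and 2.79).

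Genes whose products act with guanylate-binding proteins on pathogen membranes and in pyroptosis were read from a list of 12, of which 11 were found. Of these, 7 rose in Casp8 D387A Cflar-/- Mlkl-/- intestines (median of the 11 on the log2 scale, 1.961), among them Tgtp2 (4.37 ± 0.53) and Tgtp1 (3.72 ± 0.53), which are immunity-related GTPases. In Casp8 C362A Mlkl-/- intestines 8 rose, with a median of 3.94. On Casp1 loss in that set 1 rose, Pycard, the gene of the inflammasome adaptor ASC (log2 1.13 ± 0.24), and 2 fell, Nlrp3 (log2 -2.67 ± 0.23) and the deleted Casp1. On Casp1 loss in the D387A set 4 fell, Tgtp1, Tgtp2, Nlrp3 and the deleted Casp1, and these 4 were called without any 1 of the Casp1-/- embryos as well.

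Mx1 and Mx2, antiviral GTPases of the same superfamily that are known to respond to type I interferon, went opposite to Gbp2 on Casp1 loss. In C362A intestines they rose on Casp1 loss (log2 1.03 and 1.07), while Gvin1, a very large interferon-inducible GTPase, fell (-1.92 ± 0.41). They rose in Casp8 D387A Cflar-/- Mlkl-/- intestines (log2 2.64 and 2.23) and were higher still with Casp1 deleted (2.15 and 1.49). That second rise rested on the third Casp1-/- embryo, without which neither was called (log2 0.90 and 0.51). The summed level of Mx1, Mx2 and Gvin1 was 279.9 CPM in the third Casp8 D387A Cflar-/- Mlkl-/- Casp1-/- embryo, beside 46.3 and 73.2 in the other two.

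Markers of several cell types moved with the Gbp genes in some comparisons of whole intestine and not in others. Of 6 neutrophil markers tested, 5 rose in Casp8 D387A Cflar-/- Mlkl-/- intestines and Mpo, the gene of myeloperoxidase, fell (log2 -2.03, edgeR's adjusted p = 0.0327). In the second set 5 of 6 rose in Casp8 C362A Mlkl-/- and 5 of 6 in Casp8 C362A Cflar-/- Mlkl-/- intestines. On Casp1 loss 4 fell in the first set and 5 in the second. The summed neutrophil level was 3.68 to 17.3 CPM in controls of the first set, 35.5 to 128 in Casp8 D387A Cflar-/- Mlkl-/- and 9.14 to 17.9 with Casp1 deleted. In the second set it was 9.31 to 25.6 CPM in controls, 304 to 386.7 in Casp8 C362A Mlkl-/-, 15.6 to 19.97 with Casp1 deleted and 159 to 258 with Cflar deleted. The 8 Gbp genes summed to 695 to 853 CPM in those Casp1-/- embryos, against 46.6 to 60.6 in controls, and the median log2 difference of the 6 neutrophil markers between these groups was 0.15. In the first set the neutrophil sum was 17.9 to 28.0 CPM with Casp1 and Ifnar1 deleted, where 3 of the 6 markers were called higher than in controls and 1 lower. With Casp1 and Fadd deleted it was 4.30 to 17.1 CPM, within the range of the controls (median log2 difference 0.49), while the Gbp genes summed to 515 to 635 CPM against 59.8 to 66.7 in controls. On Cflar loss in the second set, where all 8 Gbp genes fell, 1 of the 6 neutrophil markers fell, Csf3r.

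T and NK cell markers, the genes of cells known to make interferon gamma, also rose in these 3 mutants, 2 of 5 in Casp8 D387A Cflar-/- Mlkl-/-, 6 of 7 in Casp8 C362A Mlkl-/- and 5 of 7 in Casp8 C362A Cflar-/- Mlkl-/- intestines. Their sum was 7.09 to 9.73 CPM in controls of the first set, 18.7 to 29.2 in Casp8 D387A Cflar-/- Mlkl-/- and 4.05 to 5.96 with Casp1 deleted. In Casp8 C362A Mlkl-/- intestines it was 46.0 to 50.6 CPM, against 8.83 to 11.03 in controls, 13.1 to 13.7 with Casp1 deleted and 32.1 to 47.5 with Cflar deleted. On Casp1 loss 4 fell in the first set and 3 in the second. With Ifnar1 or Fadd deleted beside Casp1 the sum was 5.56 to 7.86 and 8.78 to 12.4 CPM, and the median log2 difference of the 5 markers from controls was -0.46 and 0.18. On Cflar loss in the second set the median over the 7 markers was -0.13.

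Of 9 macrophage markers, 1 rose and 1 fell in Casp8 D387A Cflar-/- Mlkl-/- intestines, 5 rose in Casp8 C362A Mlkl-/- and 5 rose and 1 fell in Casp8 C362A Cflar-/- Mlkl-/- intestines. On Casp1 loss 2 rose in the first set and 2 fell in the second, and on Cflar loss 1 fell. Against controls 1 was higher in Casp8 C362A Mlkl-/- Casp1-/-, 2 in Ifnar1-/- and 0 in Fadd-/- intestines, with median log2 differences over the 9 of 0.76, 0.61 and 0.12. Of the B cell markers, the 1 tested in Casp8 D387A Cflar-/- Mlkl-/- intestines was not called and both of those tested in Casp8 C362A Mlkl-/- intestines rose. Among 8 epithelial markers Fabp1 and Fabp2, fatty acid-binding proteins of absorptive cells, fell in Casp8 D387A Cflar-/- Mlkl-/- intestines (log2 -7.51 and -5.87) and Krt8, a keratin, rose (1.08), with a median log2 change of -0.41 over the 8. Fabp1 and Fabp2 also fell in Casp8 C362A Mlkl-/- intestines (log2 -3.43 and -2.01), rose on Casp1 loss in both sets (6.63 and 4.65 in the first, 2.81 and 2.33 in the second) and fell on Cflar loss in the second set (-2.39 and -2.43). Krt20, a keratin of mature intestinal epithelium, rose in Casp8 C362A Mlkl-/- intestines (log2 2.23), where the median over the 8 was 0.15. Krt20 was also called higher than in controls in Casp8 C362A Mlkl-/- Casp1-/- (2.14), Casp8 C362A Cflar-/- Mlkl-/- (1.14), Ifnar1-/- (2.06) and Fadd-/- (1.14) embryos, and lower on Cflar loss in the second set. The epithelial sum was 15304 to 16429 CPM in controls of the first set, 16648 to 17582 in Casp8 D387A and 4843 to 5329 in Casp8 D387A Cflar-/- Mlkl-/-. It was 9248 to 10845 CPM with Casp1 deleted, 9301 to 11087 with Ifnar1 deleted as well and 14399 to 15680 with Fadd deleted as well. In the second set it was 13950 to 20220 CPM in controls, 7437 to 8906 in Casp8 C362A Mlkl-/-, 17689 to 20859 with Casp1 deleted and 5820 to 6348 with Cflar deleted. Most of the fall in these sums lay in Fabp1 and Fabp2. Without them the other 6 markers summed to 5601 to 6420 CPM in controls and 4712 to 5179 in Casp8 D387A Cflar-/- Mlkl-/- intestines, and to 5889 to 6505 CPM in controls of the second set, 5734 to 6731 in Casp8 C362A Mlkl-/- and 5543 to 6023 in Casp8 C362A Cflar-/- Mlkl-/- intestines. In the first set these 6 summed to 6616 to 6881 CPM in Casp8 D387A and 4779 to 6405 with Casp1 deleted. They stood above every control of their set with Ifnar1 deleted as well (6498 to 6883), with Fadd deleted as well (6681 to 7171) and in Casp8 C362A Mlkl-/- Casp1-/- intestines (8414 to 8843). Calls by edgeR among the 6 endothelial, 5 smooth muscle and 6 fibroblast markers were few in intestine. Cldn5 (log2 1.00) and Des (1.09) were higher in Casp8 C362A Cflar-/- Mlkl-/- intestines and Myh11 (-1.05) and Col1a1 (-1.16) lower in Casp8 C362A Mlkl-/- Casp1-/- intestines than in controls, and Des fell on Casp1 loss in the first set (-1.15). The part of these cell types in the Gbp levels was not tested.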

How the data were processed

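RNA sequencing of 30 E18.5 intestines and 6 MEF libraries gave 36 tables of 52636 genes. Per the labels and methods, the authors aligned reads with GSNAP to GRCm38 (mm10) and deposited counts of uniquely aligned reads on exons, the exonic width of each gene, and RPKM made from those counts. The deposited RPKM were checked against the counts and widths (largest relative deviation 2.37e-13) and not used further. The RPKM printed here were recomputed from counts and widths on TMM-scaled library sizes. The sources differ on the library kits, so whether strand was used is not settled, and reads of antisense genes cannot be told apart from those of the genes they overlap.

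Each set (18, 12 and 6 libraries) was fitted with edgeR 4.0.16 (R 4.3.3): filterByExpr (minimum count 10, minimum total 15), TMM, quasi-likelihood test, prior count 0.125, Benjamini-Hochberg adjustment over 18360, 19408 and 15465 genes, with calls at an adjusted p under 0.05 and a log2 fold change past 1 or -1. Differences between effects were fitted over 30 intestines (19643 genes) or 24 libraries (18862 genes). The 95% intervals of log2 fold changes were taken from the SE by the normal distribution. The depth was 17943524 to 32307629 reads on genes, and intervals of reads cover counting error only. Fits were tested on simulated data. Other settings were limma-voom (limma 3.58.1), DESeq2 1.42.0, DESeq2-type size factors in edgeR, tests without the low-count filter or on genes averaging 50 reads or more, prior count 2, fits of the compared groups alone, pooling of both Mlkl-/- groups, blocking on replicate number, and omission of single libraries. No 2 libraries of a group agreed within sampling noise.

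Members, gene lists (other Gbp genes, interferon gamma and type I signalling, GBP partners, dynamin-like GTPases, and markers of epithelium, macrophages, T and NK cells, B cells, neutrophils, endothelium, smooth muscle and fibroblasts) and comparisons were chosen with earlier results of these data known. All 8 members are named, and list genes by the largest changes among those called. Further list genes, named to spell out a small count, the epithelial sum without Fabp1 and Fabp2, and the Gbp2 to Gbp3 ratio were chosen after their values were seen. One gene of the lists, included in the counts, is not reported here. For likeness, the 5 genes with the highest Pearson r to the mean of the members' standardised log2 CPM over the 30 intestines are named. Replicates are labelled as separate biological samples. Same-numbered libraries deviated together in the MEFs (3 of 3 pairs with r above 0.1, 0.181 to 0.310) and not in the intestines (9 of 45 and 4 of 18 pairs). Upstream sequences came from RefSeq (GRCm38.p6), and gene positions from GENCODE M21.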

Additional observations from a re-analysis of the deposited data

Results flagged for a closer look

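A test of the difference between 2 effects picked out 5 of the members. The rise in Casp8 D387A Cflar-/- Mlkl-/- samples over Mlkl-/- controls was larger in intestine than in MEFs by 3.45 on the log2 scale for Gbp2, 2.85 for Gbp3, 3.42 for Gbp6, 1.67 for Gbp7 and 2.27 for Gbp9 (edgeR's quasi-likelihood test of the interaction, adjusted p = 6.87e-06, 0.00309, 0.0189, 0.00355 and 0.00162). Gbp6 had 24 reads over the 3 control and 17 over the 3 mutant MEF libraries, and its call was lost in limma-voom (2.88) and without the second or the third Mlkl-/- MEF library (2.84 and 3.14). The other 4 calls held under every alternative run. Single libraries that stand apart were not tested in groups of 3.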

How the results depend on the processing

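Counts of called members were within 1.5 times the value given under nearly every alternative. The exceptions were as follows. In Casp8 D387A Cflar-/- Mlkl-/- Casp1-/- intestines against controls, 7 members were called (2.16% of the genes called higher) and 2 when only the groups compared were fitted (1.08%). On Ifnar1 loss 3 were called (3.28%), 5 by limma-voom and 0 with only the groups compared (1.2%). On Fadd loss 5 were called (2.56%) and 1 with only the groups compared (1.45%). In MEFs 0 were called and 1 (Gbp5) with no filter. The shares over all genes by limma-voom and with no filter are not given here. The cause was not tested.

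Leaving out each library in turn gave 7 to 8 called members for Casp8 D387A Cflar-/- Mlkl-/- against controls, 4 to 8 with Casp1 deleted as well, 7 to 8 with Fadd also deleted, 2 to 6 for Casp1 loss, 0 to 8 for Ifnar1 loss and 3 to 7 for Fadd loss in the D387A set, 2 to 3 for Casp1 loss in the C362A set, 0 to 3 for the difference of Casp1 loss between the sets and 4 to 5 for the difference between intestine and MEFs. Most of these ranges turned on the third Casp8 D387A Cflar-/- Mlkl-/- Casp1-/- embryo. Gbp6 reversed in the difference of Casp1 loss, from 0.05 to -1.22 on the log2 scale without that embryo, and reached 0.43 without the second. The counts were constant for Casp8 D387A (0), with Casp1 and Ifnar1 deleted (8), for the 3 C362A genotypes against controls (8 each), for Cflar loss in the C362A set (8), in MEFs (0) and for the difference between the Cflar-/- mutants (0).

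With replicate number as a block, 4 members were called on Ifnar1 loss (Gbp5 as well, log2 1.18) in place of 3, and the block changed no other count. The intestine numbers do not pair samples, and the MEF numbers may, where the blocked count stayed 0. On raw library totals the summed RPKM was 14.7 in Casp8 D387A intestines in place of 15.8 and 190.2 in Casp8 C362A Mlkl-/- Casp1-/- in place of 219. By Spearman's rho the highest likeness outside the family was 0.955 in place of 0.982. Reads were few for Ifng, Ifnb1 and Gbp10 in control intestines (at most 3 over 3 libraries) and for Gbp4, Gbp5, Gbp6 and Gbp8 in MEFs (at most 14 per library).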
